A study of Mus musculus with 8 samples.

Results

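The nuclear genes of oxidative phosphorylation were taken from the authors' table of counts per gene as all rows whose symbol began with Nduf, Uqcr, Cox4 to Cox8 or Atp5, or was Sdha, Sdhb, Sdhc or Sdhd. After 1 row named as a pseudogene (-ps) was left out, 93 of the 39017 rows remained. They comprised 36 subunits of complex I, 4 of complex II, 8 of complex III, 19 of complex IV including its tissue-restricted isoforms, 16 of complex V and 10 assembly factors. GENCODE M21 annotates 92 of the 93 as protein-coding and Atp5l2, kept by its symbol under complex V, as a processed pseudogene.

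Satellite cells, which are the resident stem cells of muscle, were taken from adult mice with 1 Pax3 allele carrying GFP, an allele shared by both conditions. They came from diaphragm and abdominal muscle and were plated at 7500 cells on 35 mm dishes. In culture for 4 days they received 10 µM sal003, a small molecule that inhibits dephosphorylation of the initiation factor eIF2α (n = 4 libraries), or its vehicle DMSO (n = 4 libraries). The title of the series names the study's question, the part that translation under phosphorylated eIF2α has in the expansion of these cells. Whether the 4 libraries of a condition stem from different animals or dishes is not in the labels. All p-values therefore measure only the spread between these libraries, which may be technical. All 7 markers of myogenic cells examined (Pax3, Pax7, Myf5, Myod1, Myog, Des and Cdh15) had counts in all 8 libraries.

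Oxidative phosphorylation couples the oxidation of NADH and succinate to ATP synthesis in the inner mitochondrial membrane. Complexes I and II pass electrons to ubiquinone, complex III passes them on to cytochrome c, complex IV reduces oxygen, and complex V uses the proton gradient to make ATP. In heart and skeletal muscle, complex IV carries muscle isoforms of some subunits, Cox6a2, Cox7a1 and Cox8b, in place of the widely expressed Cox6a1, Cox7a2 and Cox8a, and the muscle forms are known to come up as muscle fibres mature.

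Total counts were 37248830 to 39378523 in the sal003 libraries and 32753929 to 40234107 in the DMSO libraries. DMSO replicate 2 stood apart: 14437 genes had at least 1 count there, against 16561 to 18076 in the other 7 libraries, and its highest Spearman correlation with another DMSO library was 0.949, against 0.978 to 0.982 for every other library with its own condition. Calls of members that changed without it are given both ways. Levels are CPM, the usual measure of counts relative to library size, here TMM-scaled, log2 fold changes are sal003 over DMSO with their standard error, and adjusted p-values come from edgeR's quasi-likelihood test with Benjamini-Hochberg adjustment over all genes tested, with 0.05 as the threshold.

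Among the members, the 2 muscle isoforms Cox6a2 and Cox8b fell furthest under sal003, 7 of the 36 complex I subunits fell, the 2 membrane anchors of complex II moved in opposite directions, and no subunit of complexes III and V passed the test. Of the 93 members, 89 passed the filter on low counts. Of these 89, 2 were higher (2.25%) and 10 lower (11.2%), while over all 15816 genes tested 10.6% were higher and 12.2% lower. The share of members called in either direction was 13.5%, against 22.7% of all genes. The share lower was near that of all genes, and the share higher was below it. The median log2 fold change of the members was -0.15, with 63 of 89 below 0 (40 of 89 when libraries were scaled by totals alone), and that of all tested genes was -0.00338. On either side of 0, their median absolute log2 fold change was 0.21 against 0.41 over all genes, and 5.62% of them passed an absolute log2 fold change of 1 against 17.9% of all genes.

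**Figure D1:**
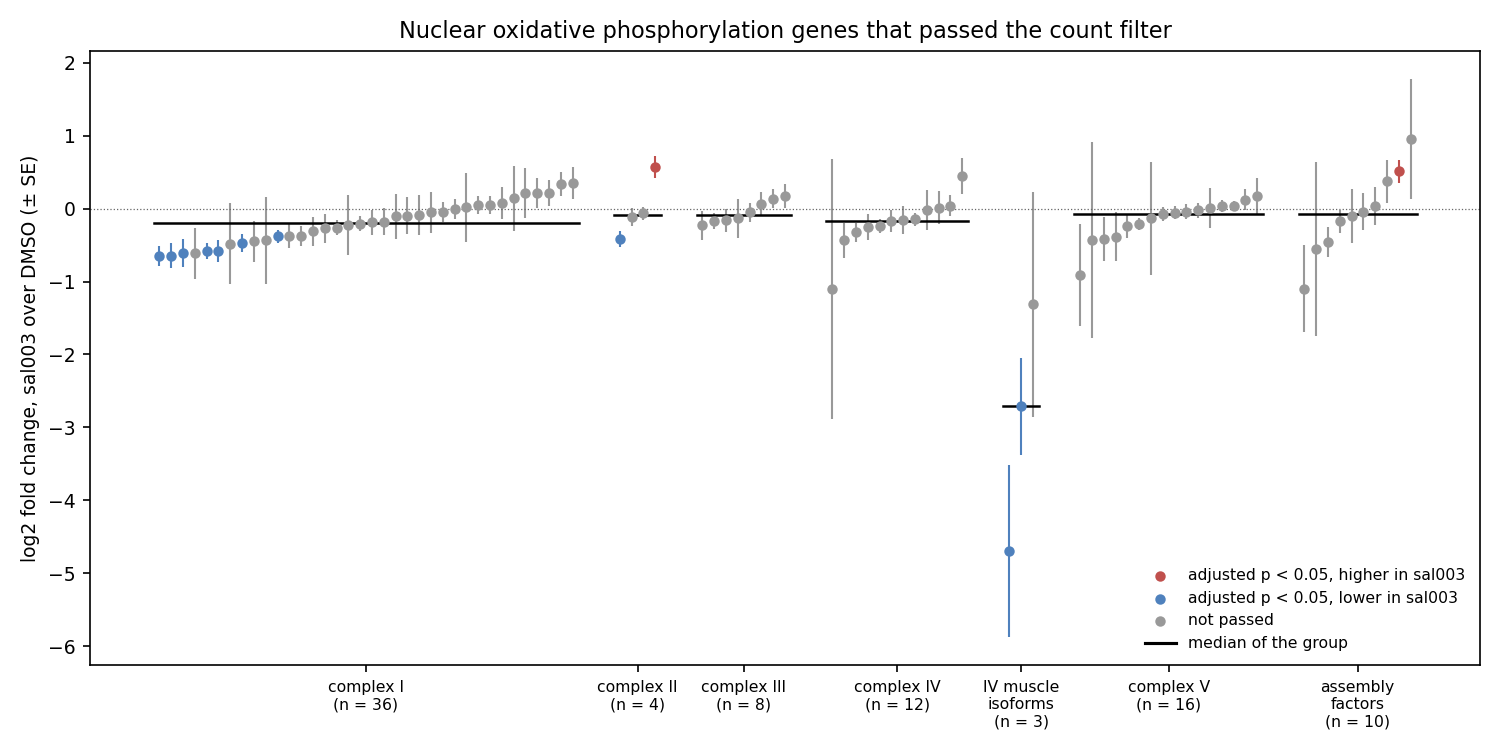
Log2 fold change (sal003 over DMSO) of each tested member on the vertical axis, in columns by complex and for assembly factors, ordered within a column by value. Points are genes, thin bars the SE and thick lines the median of a column; blue and red points passed edgeR's threshold as lower and higher, and grey points did not. The complex I median is -0.20, and the muscle isoforms Cox6a2 and Cox8b lie at -4.70 and -2.71, far below the other subunits.

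Both Cox6a2 and Cox8b, muscle isoforms of complex IV, were far lower under sal003 than in DMSO, and the third, Cox7a1, did not pass the test. Cox6a2 had 0, 24, 2 and 0 counts in the sal003 libraries, against 113, 146, 180 and 125 in the DMSO libraries, that is 0, 0.570, 0.0501 and 0 CPM in sal003 against 3.61, 4.33, 5.29 and 3.29 CPM in DMSO. Every sal003 library lay below every DMSO library, and nearly all the sal003 counts came from replicate 2. Cox6a2 averaged 0.155 ± 0.277 CPM in sal003 and 4.13 ± 0.887 CPM in DMSO (SD, n = 4 each), and the log2 fold change was -4.70 ± 1.18 (edgeR adjusted p = 0.00885). With 2 sal003 libraries at 0 counts, the size of that fold depends on the prior count of the fit.

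Cox8b had 26, 36, 30 and 8 counts in the sal003 libraries, against 110, 138, 175 and 128 in the DMSO libraries. Its levels were 0.637, 0.854, 0.752 and 0.206 CPM in sal003, against 3.51, 4.09, 5.14 and 3.37 CPM in DMSO. The groups did not overlap. The log2 fold change was -2.71 ± 0.67 (edgeR adjusted p = 0.00734). Cox7a1 had 0, 0, 24 and 38 counts in the sal003 libraries, against 32, 48, 8 and 48 in the DMSO libraries. It did not pass the test (-1.31 ± 1.54, edgeR adjusted p = 0.642), and the groups overlapped. The 3 genes lie on chromosome 7 (GENCODE M21, mm10): Cox6a2 (ENSMUSG00000030785) at chr7:128205435-128206387 on the minus strand, Cox8b (ENSMUSG00000025488) at chr7:140898945-140900446 on the minus strand, and Cox7a1 (ENSMUSG00000074218) at chr7:30184144-30186078 on the plus strand. An exon of Itgad lies opposite Cox6a2, and whether counting used strand is not given in the sources used here. Cox6a2 and Cox8b passed in all 8 fits that left out 1 library.

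None of the widely expressed counterparts passed the test. Cox6a1 averaged 20.1 ± 4.79 CPM in sal003 and 19.9 ± 5.28 CPM in DMSO (0.02 ± 0.23, edgeR adjusted p = 0.978). Cox7a2 averaged 23.0 ± 4.25 CPM in sal003 and 27.3 ± 2.69 CPM in DMSO (-0.25 ± 0.18, edgeR adjusted p = 0.377). Cox8a averaged 91.5 ± 15.7 CPM in sal003 and 88.9 ± 13.9 CPM in DMSO (0.04 ± 0.14, edgeR adjusted p = 0.892). That does not show that their levels were equal. Per kilobase of exon, where genes can be set against each other, the muscle forms were minor already in DMSO: Cox6a2 reached 0.228 CPM per kilobase in sal003 and 6.07 in DMSO, and Cox6a1 28.6 in sal003 and 28.3 in DMSO. Cox8b reached 1.70 CPM per kilobase in sal003 and 11.2 in DMSO, and Cox8a 148 in sal003 and 144 in DMSO. A ratio of counts within a library does not depend on scaling between libraries. The muscle form made up 0, 2.46, 0.196 and 0% of the Cox6a2 and Cox6a1 counts in the sal003 libraries, against 12.6, 23.7, 18.4 and 16.3% in the DMSO libraries. For Cox8b and Cox8a the share was 0.651, 1.23, 0.716 and 0.215% in sal003, against 3.37, 4.87, 4.87 and 4.35% in DMSO. For Cox7a1 and Cox7a2 it was 0, 0, 2.16 and 3.95% in sal003, against 3.34, 4.99, 0.985 and 4.17% in DMSO. With 0.5 added to each count, the log2 ratio of Cox6a2 over Cox6a1 averaged -8.65 ± 2.38 in sal003 and -2.25 ± 0.46 in DMSO, a difference of -6.40. That of Cox8b over Cox8a averaged -7.35 ± 1.03 in sal003 and -4.46 ± 0.26 in DMSO, a difference of -2.88. That of Cox7a1 over Cox7a2 averaged -7.87 ± 3.31 in sal003 and -5.04 ± 1.05 in DMSO, a difference of -2.83. In a two-sided exact permutation test over the 8 libraries the p was 0.0286 for Cox6a2, 0.0286 for Cox8b and 0.2 for Cox7a1, where 0.0286 is the smallest that 70 arrangements allow. Adjusted over the 3 pairs, the exact permutation p was 0.0429 for Cox6a2, 0.0429 for Cox8b and 0.2 for Cox7a1, with the difference below 0 in all 3.

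**Figure D2:**
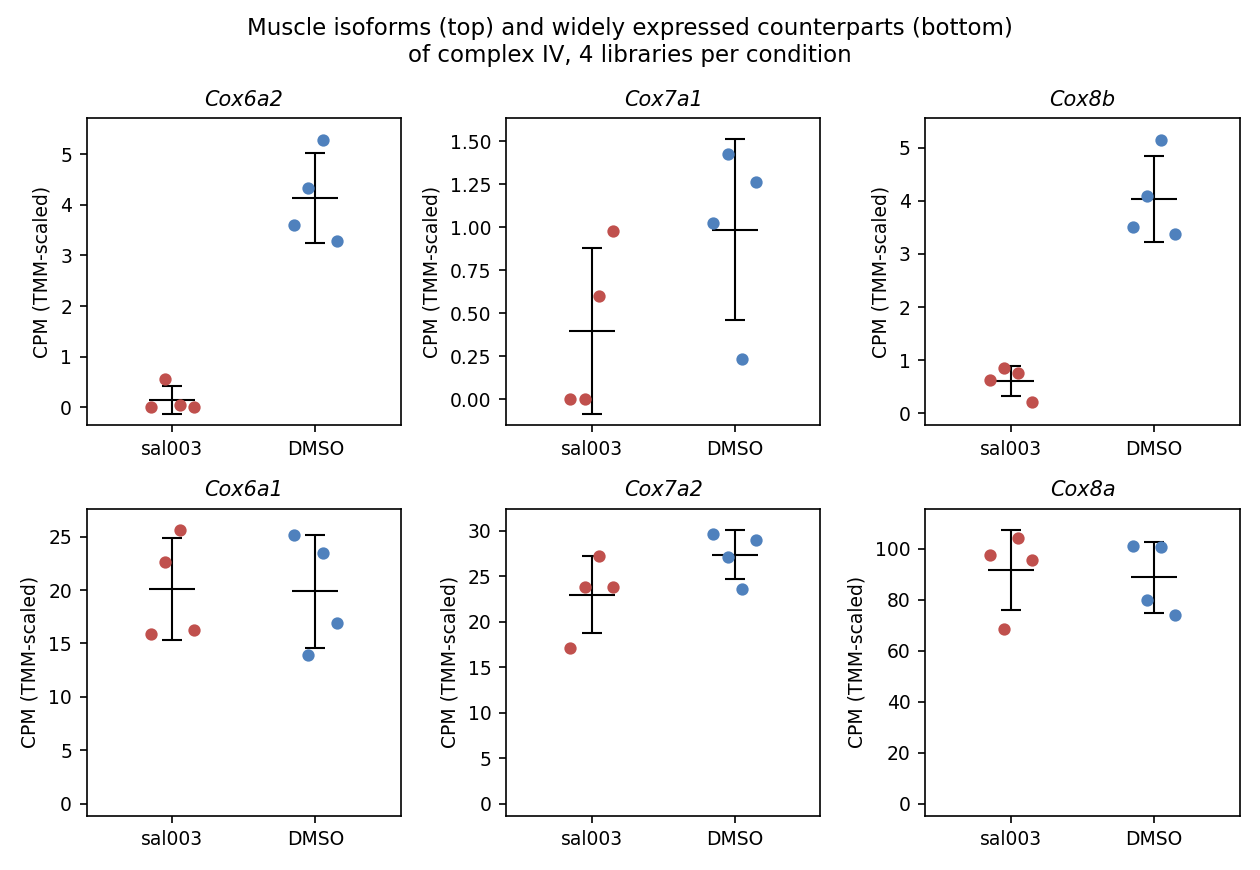
CPM of the 3 muscle isoforms and of their 3 widely expressed counterparts in each library; sal003 libraries stand left of DMSO libraries, points are libraries, and the horizontal bars are means with SD (n = 4 each). Each panel has its own axis. Cox6a2 lies between 0 and 0.570 CPM in sal003 and above 3 CPM in every DMSO library, while the Cox6a1 points of the conditions overlap.

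Markers of differentiated muscle moved with these isoforms. All 7 tested (Acta1, Actn2, Myh3, Myh8, Tnnt3, Ckm and Mb) were lower, beside 12.2% of all genes tested. The summed level of the 7 was 2706 to 4044 CPM in sal003 libraries against 14310 to 20296 CPM in DMSO libraries. Actn2, a protein of the sarcomeric Z disc, averaged 85.7 ± 10.4 CPM in sal003 and 732 ± 99.4 CPM in DMSO. In bulk RNA, fewer differentiated cells and less of this RNA per cell cannot be told apart. Of the 7 myogenic markers, Pax7, a satellite cell factor, was higher (0.43 ± 0.10, edgeR adjusted p = 0.00539), and the differentiation factor Myog (-1.60 ± 0.09), the intermediate filament gene Des (-1.33 ± 0.08) and Cdh15 (-0.92 ± 0.10) were lower by the same test, while Pax3, Myf5 and Myod1 did not pass. Brown adipocytes also carry Cox7a1 and Cox8b, and cardiomyocytes carry Cox6a2. Of 6 adipocyte markers Adipoq and Plin1 were at 0 in all 8 libraries, and the summed level of the 6 was 4.84 to 7.23 CPM in sal003 against 0.593 to 6.79 CPM in DMSO. Of 5 cardiomyocyte markers Nppa, Nppb and Myl7 were at 0 in all 8 libraries, and the sum was 7.03 to 13.2 CPM in sal003 against 16.5 to 83.6 CPM in DMSO, mostly from Myh6. Smooth muscle and pericyte markers summed to 388 to 559 CPM in sal003 and 1457 to 1595 CPM in DMSO, nearly all from Acta2, which averaged 470.4 ± 84.9 CPM in sal003 and 1545 ± 64.2 CPM in DMSO; Rgs5 did not pass and Myh11 was not tested. The summed fibro-adipogenic, endothelial and immune markers stayed at or under 5.24 CPM each in every library. The parts of differentiation and of these cell types in the results were not tested.

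The promoter windows of Cox8b, Cox7a1, Cox8a and Cox6a1 are shown as those of muscle and widely expressed forms of complex IV subunits, Cox7a1 being a muscle form that did not pass the test, and those of Ndufa9 and Sdhd because these genes led the subunits that fell and rose among the other complexes. Windows are RefSeq promoters of GRCm38.p6, 250 bases before to 50 after the start of the gene, read 5′ to 3′ on its strand. Capitals mark matches on either strand to 6 motifs: GCGCA and GCGC with any base between (NRF1), CCGGAAG (ETS family), AANATGGCG (YY1), CANNTG (E-box), CTA and TAG with any 4 bases between (MEF2) and TNAAGGTCA (oestrogen-related receptor).
Cox8b (chr7:140900397-140900696, minus strand): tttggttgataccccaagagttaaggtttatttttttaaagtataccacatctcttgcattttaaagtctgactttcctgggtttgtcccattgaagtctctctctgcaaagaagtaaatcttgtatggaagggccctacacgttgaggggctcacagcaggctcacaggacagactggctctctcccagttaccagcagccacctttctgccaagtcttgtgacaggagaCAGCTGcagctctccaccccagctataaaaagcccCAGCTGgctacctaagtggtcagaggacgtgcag
Cox7a1 (chr7:30183921-30184220, plus strand): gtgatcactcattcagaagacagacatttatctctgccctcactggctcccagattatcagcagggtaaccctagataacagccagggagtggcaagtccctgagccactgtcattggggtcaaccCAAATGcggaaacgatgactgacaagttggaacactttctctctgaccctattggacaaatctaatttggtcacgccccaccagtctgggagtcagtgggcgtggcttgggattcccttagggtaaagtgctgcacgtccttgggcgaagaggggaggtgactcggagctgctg
Cox8a (chr19:7217567-7217866, minus strand): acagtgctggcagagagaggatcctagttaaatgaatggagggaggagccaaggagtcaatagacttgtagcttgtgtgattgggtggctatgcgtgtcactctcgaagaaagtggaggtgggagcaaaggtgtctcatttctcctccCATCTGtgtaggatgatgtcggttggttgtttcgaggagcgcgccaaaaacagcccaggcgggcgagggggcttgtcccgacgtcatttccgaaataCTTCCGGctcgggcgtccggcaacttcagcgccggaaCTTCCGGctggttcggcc
Cox6a1 (chr5:115348909-115349208, minus strand): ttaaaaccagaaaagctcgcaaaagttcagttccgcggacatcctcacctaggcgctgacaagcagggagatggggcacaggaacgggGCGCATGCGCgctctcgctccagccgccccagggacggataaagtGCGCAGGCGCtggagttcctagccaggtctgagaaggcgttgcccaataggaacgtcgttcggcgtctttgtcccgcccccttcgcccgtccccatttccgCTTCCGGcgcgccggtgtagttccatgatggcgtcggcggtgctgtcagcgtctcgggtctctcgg
Ndufa9 (chr6:126849095-126849394, minus strand): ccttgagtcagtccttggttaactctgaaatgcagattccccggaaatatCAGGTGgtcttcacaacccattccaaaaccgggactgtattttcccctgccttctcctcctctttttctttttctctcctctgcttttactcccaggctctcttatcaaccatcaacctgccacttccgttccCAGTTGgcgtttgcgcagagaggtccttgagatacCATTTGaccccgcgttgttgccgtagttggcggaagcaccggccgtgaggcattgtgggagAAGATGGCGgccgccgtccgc
Sdhd (chr9:50603800-50604099, minus strand): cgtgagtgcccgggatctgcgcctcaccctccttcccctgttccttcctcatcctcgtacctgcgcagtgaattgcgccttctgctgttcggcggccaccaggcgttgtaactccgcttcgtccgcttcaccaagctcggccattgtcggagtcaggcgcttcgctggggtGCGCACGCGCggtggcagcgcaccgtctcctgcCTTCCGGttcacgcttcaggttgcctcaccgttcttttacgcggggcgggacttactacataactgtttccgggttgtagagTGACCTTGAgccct
The Cox8b window held 2 E-boxes, the Cox7a1 window 1, and neither held a match to the NRF1, ETS or YY1 motif. The same held for Cox7a2, the widely expressed counterpart of Cox7a1, whose window is not shown: it had 1 E-box and no match to those 3 motifs. No window was found for Cox6a2. The Cox6a1 window held 2 NRF1 matches and 1 ETS match, the Cox8a window 2 ETS matches and 1 E-box, the Ndufa9 window 1 YY1 match and 3 E-boxes, and the Sdhd window 1 match each to the NRF1, ETS and receptor motifs. Windows were found for 76 of the 93 members, 82 windows in all, and the NRF1 motif stood in 24.4% of them against 4.6% of all 32851 RefSeq windows. The corresponding shares were 20.7% against 8.86% for the ETS motif, 14.6% against 2.38% for YY1, 3.66% against 1.28% for the receptor, 70.7% against 72.3% for the E-box and 2.44% against 3.69% for MEF2. A match describes letters and not a bound site.

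Of the 36 subunits of complex I, the NADH dehydrogenase, 7 fell under sal003 and none rose. The share lower was 19.4%, against 12.2% of all genes tested; the median log2 fold change was -0.20, with 26 of 36 subunits below 0. Transcripts of the 36 subunits summed to 1619, 1604, 1665 and 1650 CPM in the sal003 libraries, against 1964, 1708, 1957 and 1843 CPM in the DMSO libraries. On this TMM scale every sal003 sum was below every DMSO sum. Relative to raw library totals the sums overlapped, at 1717 to 1775 CPM in sal003 and 1635 to 1876 CPM in DMSO. With that scaling 1 subunit was higher, 2 were lower and the median was -0.02, beside 2878 of all 15816 genes tested higher and 1365 lower. On the TMM scale 7 of the 36 subunits (19.4%) had every sal003 library below every DMSO library, as did 11 of the 89 tested members and 13.7% of all genes. They were the same 7 that fell, and as both readings use the same libraries, the separation adds no support to the calls. Without DMSO replicate 2, 1 subunit was higher and 11 were lower, and the median was -0.27. In that fit 13.4% of all genes tested were higher and 13.6% lower.

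Ndufa9, an accessory subunit near the quinone site, fell with the smallest adjusted p of the 36. It had 49.7, 57.0, 59.8 and 63.1 CPM in sal003, against 90.9, 84.3, 91.6 and 77.4 CPM in DMSO (-0.58 ± 0.11, edgeR adjusted p = 0.00118). Ndufa9 (ENSMUSG00000000399, chr6:126821721-126849136, minus strand) passed in every alternative run, and its groups did not overlap.

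Ndufb11, a membrane-arm subunit, had 25.1, 27.0, 29.5 and 27.5 CPM in sal003, against 46.7, 41.6, 45.1 and 37.3 CPM in DMSO (-0.65 ± 0.14, edgeR adjusted p = 0.00255). Ndufs4, an accessory subunit of the peripheral arm whose loss in mice causes a Leigh-like encephalopathy, had 58.7, 56.3, 74.0 and 74.4 CPM in sal003, against 93.5, 80.4, 93.7 and 98.7 CPM in DMSO (-0.48 ± 0.12, edgeR adjusted p = 0.00946). In both genes the lowest DMSO library stood clear of the sal003 libraries. Ndufa11, Ndufv3 and Ndufa7 are further accessory subunits. Ndufa11 averaged 19.9 ± 1.47 CPM in sal003 and 29.7 ± 1.48 CPM in DMSO (-0.58 ± 0.15, edgeR adjusted p = 0.0111). Ndufv3 averaged 22.8 ± 2.40 CPM in sal003 and 35.6 ± 7.70 CPM in DMSO (-0.65 ± 0.17, edgeR adjusted p = 0.0131). Ndufa7 averaged 13.4 ± 2.09 CPM in sal003 and 20.4 ± 1.24 CPM in DMSO (-0.61 ± 0.19, edgeR adjusted p = 0.0294). Ndufa7 missed the threshold without sal003 replicate 1, sal003 replicate 2, DMSO replicate 1 or DMSO replicate 3 (edgeR adjusted p up to 0.0986), and Ndufv3 missed it without DMSO replicate 1 or 3 (up to 0.0549).

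The subunits that first handle NADH did not pass the test with all 8 libraries. In the alternatives Ndufv1 was called lower with the 10 CPM filter and without DMSO replicate 3, and Ndufv2 higher with library totals alone. Ndufv1, the flavin-binding subunit, gave a log2 value of -0.26 ± 0.11 (edgeR adjusted p = 0.110), and Ndufv2 gave 0.34 ± 0.17 (edgeR adjusted p = 0.187), with DMSO libraries at 68.9, 63.1, 112 and 110 CPM. The highest log2 fold change of the 36 was that of Ndufab1, the mitochondrial acyl carrier protein, at 0.35 ± 0.22 (edgeR adjusted p = 0.325). Without DMSO replicate 2 it passed the test, with a log2 fold change of 0.64.

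**Figure D3:**
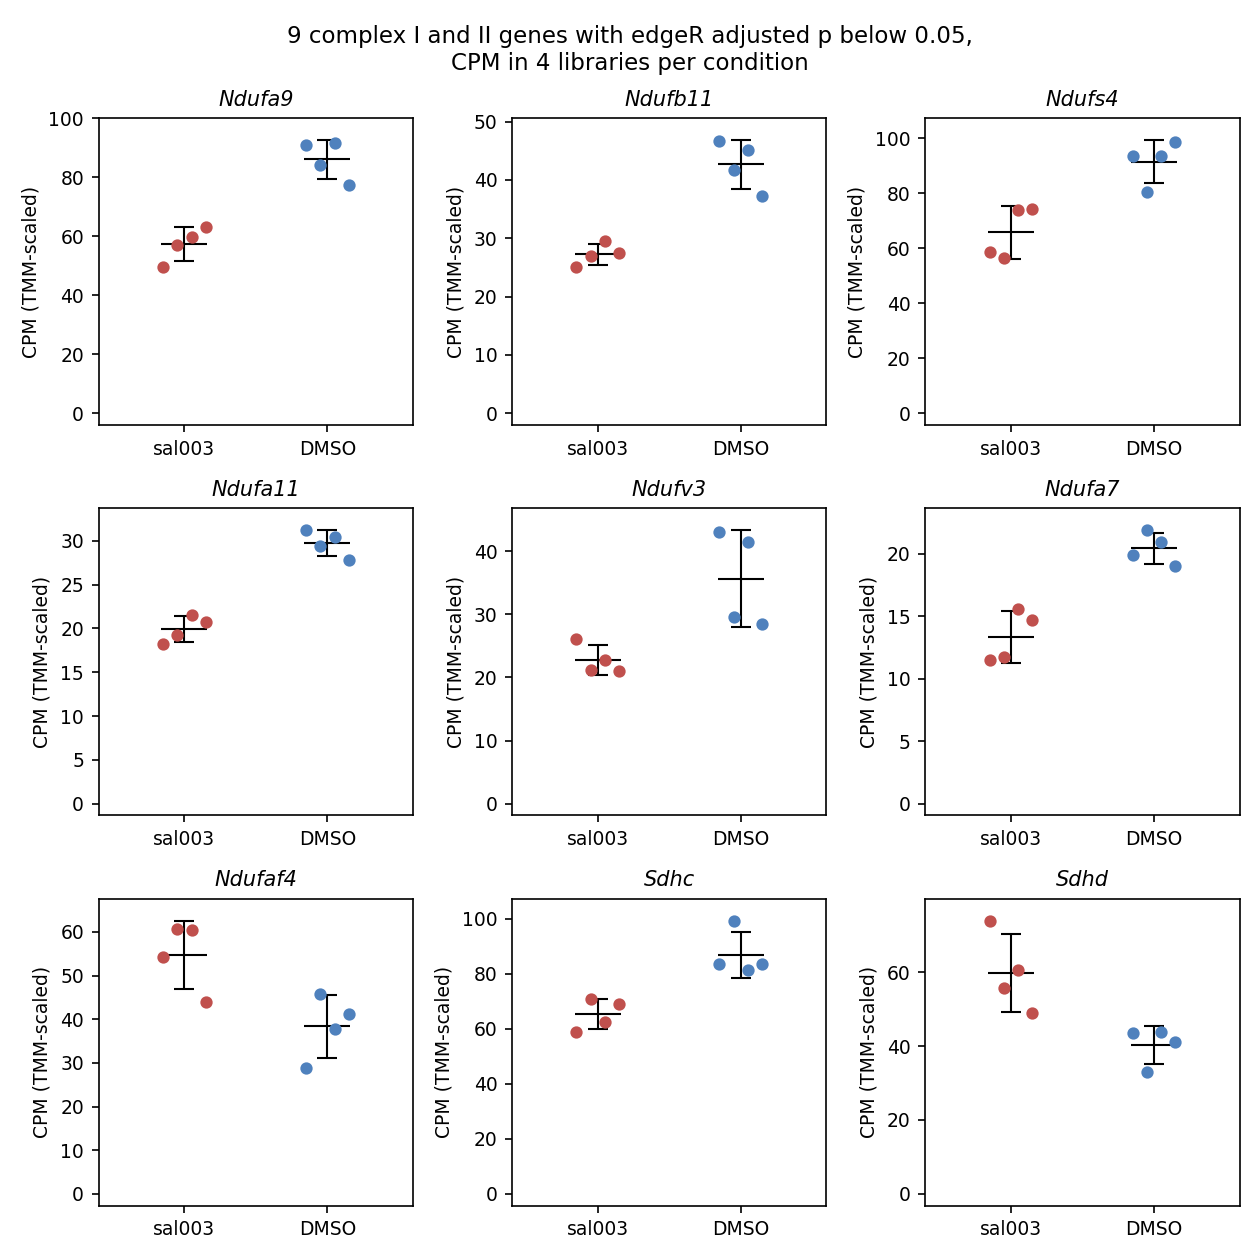
CPM in each library of 9 complex I and II genes past the threshold, assembly factors included, each on its own axis from 0; sal003 points stand left of DMSO points and bars are means with SD (n = 4 each). Sdhd and Ndufaf4 are the 2 members higher in sal003, and for Ndufaf4 the lowest sal003 library (43.9 CPM) lies below the highest DMSO library (45.7 CPM).

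Complex II, succinate dehydrogenase, has 2 catalytic subunits and 2 membrane anchors. The anchors went in opposite directions. Sdhd had 74.0, 55.8, 60.5 and 48.9 CPM in sal003, against 43.4, 32.9, 43.8 and 41.0 CPM in DMSO, and every sal003 library lay above every DMSO library (0.57 ± 0.15, edgeR adjusted p = 0.0103). Sdhc had 59.0, 70.7, 62.6 and 69.0 CPM in sal003, against 83.5, 99.4, 81.2 and 83.7 CPM in DMSO, and every sal003 library lay below (-0.41 ± 0.11, edgeR adjusted p = 0.0126). Both calls were lost without sal003 replicate 1, at adjusted p of 0.0522 for Sdhd and 0.0580 for Sdhc. The catalytic pair did not pass the test. Sdha, the flavoprotein that oxidises succinate, averaged 217 ± 12.1 CPM in sal003 and 227 ± 22.7 CPM in DMSO (-0.06 ± 0.09, edgeR adjusted p = 0.720), and Sdhb, the iron-sulfur subunit, 68.5 ± 10.7 CPM in sal003 and 74.0 ± 4.44 CPM in DMSO (-0.11 ± 0.12, edgeR adjusted p = 0.618).

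Of the 8 complex III subunits none passed the test, and log2 fold changes ran from -0.23 for Uqcr10 to 0.17 for Uqcrb, with a median of -0.09. Uqcrfs1, the Rieske iron-sulfur protein, averaged 109 ± 7.04 CPM in sal003 and 123 ± 20.1 CPM in DMSO (-0.17 ± 0.12, edgeR adjusted p = 0.356). Uqcrc1, core protein 1, averaged 246 ± 12.4 CPM in sal003 and 254 ± 61.8 CPM in DMSO, where the wide spread came from DMSO replicate 2 at 346.9 CPM. Without that library Uqcrq was lower, and the median was 0.01.

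The 11 structural subunits of complex IV, the muscle and alternative isoforms aside, had a median of -0.16 and none passed. Their summed level was 627 ± 56.5 CPM in sal003 and 700 ± 72.5 CPM in DMSO. Cox6c was the 1 of the 11 without overlap: 103, 130, 127 and 125 CPM in sal003, against 141, 143, 141 and 147 CPM in DMSO, at an edgeR adjusted p of 0.0894 (-0.24 ± 0.10). Such a separation in either direction was seen in 26.8% of all tested genes and in 13.5% of tested members. Cox4i1, the widely expressed subunit 4, averaged 116 ± 5.85 CPM in sal003 and 128 ± 5.08 CPM in DMSO (-0.15 ± 0.09, edgeR adjusted p = 0.286). Cox7c gave the highest value of the 11 at 0.44 ± 0.25 (edgeR adjusted p = 0.243), and Ndufa4 the lowest at -0.44 ± 0.24 (edgeR adjusted p = 0.246). Without DMSO replicate 2, Ndufa4 and Cox7b were lower.

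The alternative isoforms of complex IV were scarce. Cox4i2, the lung-enriched subunit 4, had 10, 0, 0 and 0 counts in the sal003 libraries, against 16, 0, 34 and 30 in the DMSO libraries. Cox7b2 and Cox8c had no count in any library, and 3 counts over a group, the limit a count of 0 allows, correspond to 0.0186 CPM in sal003 and 0.0219 CPM in DMSO. Ndufa4l2, a relative of Ndufa4 induced by hypoxia, had 15, 0, 13 and 9 counts in sal003 and 0 in every DMSO library. An exon of Shmt2 lies opposite Ndufa4l2, and reads of the 2 genes cannot be told apart if counting ignored strand. These 4 were not tested, having failed the filter. Cox6b2, the testis form of subunit 6b, was tested at very low counts (-1.10 ± 1.78, edgeR adjusted p = 0.757).

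Complex V, the ATP synthase, gave the most abundant transcripts of the set, and none of the 16 genes counted under it passed. The summed level was 3952, 4027, 3988 and 4034 CPM in the sal003 libraries, against 4363, 4529, 4232 and 4083 CPM in the DMSO libraries. Relative to raw library totals the sums overlapped, at 4207 to 4308 CPM in sal003 and 3827 to 4334 CPM in DMSO. Atp5b, the catalytic beta subunit, led at 478 CPM per kilobase in sal003 and 551 in DMSO. It averaged 2025 ± 79.3 CPM in sal003 and 2336 ± 226 CPM in DMSO (-0.21 ± 0.08, edgeR adjusted p = 0.0819). Atp5a1, its partner in the catalytic head, differed less, at 1056 ± 42.0 CPM in sal003 and 1026 ± 12.9 CPM in DMSO (0.04 ± 0.07, edgeR adjusted p = 0.772). The 3 genes for the c subunit of the rotor, which differ mainly in the leader peptide, gave log2 fold changes of 0.00 ± 0.27 for Atp5g1, -0.43 ± 1.35 for Atp5g2 and 0.13 ± 0.14 for Atp5g3. Without DMSO replicate 2 the values were -0.13 for Atp5g1, -0.84 for Atp5g2 and -0.01 for Atp5g3. Atp5g2 was read at very low levels, 0.771 ± 0.532 CPM in sal003 and 1.04 ± 0.879 CPM in DMSO. Of its 50-base words, 36.7% also occur in other genes. The widest value, -0.91 ± 0.70 for Atp5l2, the annotated pseudogene, is uncertain, since 73.4% of the 50-base words of its exons also occur in other genes. Without DMSO replicate 2, Atp5e and Atp5l2 were lower.

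Of the 10 assembly factors, 8 act on complex I. Of the 10, 1 rose and none fell, a share higher of 10%, near the 10.6% of all genes tested. Ndufaf4 had 54.3, 60.6, 60.3 and 43.9 CPM in sal003, against 28.8, 45.7, 37.7 and 41.2 CPM in DMSO (0.51 ± 0.16, edgeR adjusted p = 0.0267). The groups overlapped by 1 library, and 5 of the 8 fits that left out 1 library no longer called it (without sal003 replicate 1, 2 or 3, or DMSO replicate 1 or 3; edgeR adjusted p up to 0.0932). Ndufaf2, a complex I assembly factor, showed 0.96 ± 0.82 (edgeR adjusted p = 0.498), and 0.56 ± 0.40 without DMSO replicate 2, which had 2 counts. Ndufaf3, another, showed -1.10 ± 0.60 (edgeR adjusted p = 0.234). Cox7a2l, a supercomplex assembly factor, showed -0.17 ± 0.16 (edgeR adjusted p = 0.529).

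Genes of the same machinery outside the symbols matched were read from lists of known function, beside the 10.6% of all tested genes that were higher and the 12.2% that were lower. Cycs, somatic cytochrome c, rose: it averaged 28.3 ± 3.11 CPM in sal003 and 19.1 ± 2.36 CPM in DMSO (0.57 ± 0.17, edgeR adjusted p = 0.0208), and of the 6 tested genes of this list it was the 1 past the threshold. Without sal003 replicate 1 or 3 the call was lost. Of 40 further assembly factors tested, 1 rose and 3 fell, smaller shares than over all genes, with a median of -0.23. Cox17, the copper chaperone of complex IV, averaged 18.2 ± 1.46 CPM in sal003 and 10.1 ± 2.20 CPM in DMSO (0.85 ± 0.22, edgeR adjusted p = 0.00921). Cox14, a complex IV assembly factor, averaged 8.60 ± 0.480 CPM in sal003 and 17.2 ± 3.60 CPM in DMSO (-1.0 ± 0.22, edgeR adjusted p = 0.00375). Uqcc1, which acts on complex III, fell by 0.53 (edgeR adjusted p = 0.0127; lost without sal003 replicate 2 or DMSO replicate 3), and Surf1, which acts on complex IV, fell by 0.99 (edgeR adjusted p = 0.0436; not called in 6 of the 8 leave-one-out fits, with sal003 replicate 2 and DMSO replicate 4 the exceptions).

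In the citric acid cycle, which feeds NADH and succinate to complexes I and II, 2 of 13 tested genes rose. Idh3a, a subunit of the NAD-linked isocitrate dehydrogenase, averaged 312 ± 31.6 CPM in sal003 and 220 ± 26.7 CPM in DMSO (0.51 ± 0.10, edgeR adjusted p = 0.00164). Suclg2, a subunit of succinyl-CoA synthetase, rose by 0.70 (edgeR adjusted p = 0.0228), a call lost without sal003 replicate 1, sal003 replicate 4 or DMSO replicate 1. Of the 13 subunits encoded by mitochondrial DNA none rose and 2 fell, both of complex I. mt-Nd5 averaged 1306 ± 63.6 CPM in sal003 and 1746 ± 210 CPM in DMSO (-0.42 ± 0.09, edgeR adjusted p = 0.00252). mt-Nd4l averaged 202 ± 42.5 CPM in sal003 and 291 ± 52.1 CPM in DMSO (-0.53 ± 0.15, edgeR adjusted p = 0.0198), and its call was lost without sal003 replicate 2, 3 or 4. Mitochondrial RNA was depleted during library preparation per the labels, so these levels are what the depletion left.

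The direction of the set as a whole depended on how the libraries were scaled. TMM factors were 1.04 to 1.07 in sal003 and 0.905 to 0.958 in DMSO. On the TMM scale the members summed to 7347, 7449, 7559 and 7593 CPM in sal003, against 8304, 8195, 8191 and 7829 CPM in DMSO. As a share of raw counts they made up 0.786, 0.797, 0.806 and 0.792% in sal003, against 0.793, 0.784, 0.741 and 0.740% in DMSO, and here the sal003 mean was the higher. With libraries scaled by totals alone, 2878 of the 15816 genes tested were higher and 1365 lower, and their median was 0.17. The median of the members was 0.03, 49 members were above 0, and 4 were higher and 4 lower. The 4 higher were Atp5a1, Ndufaf4, Ndufv2 and Sdhd, and the 4 lower were Cox6a2, Cox8b, Ndufa9 and Ndufb11. Ndufa11, Ndufs4, Ndufa7, Ndufv3 and Sdhc were among those not called there, and the medians of complexes II, III and V, of the structural subunits of complex IV and of the assembly factors were above 0. The members' median stood below that of all genes under both scalings.

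DMSO replicate 2 was the lowest DMSO library for 40 of the 89 tested members, and it lay more than 1 log2 unit below the mean of the other 3 for 15 of them, against 0, 3 and 1 for DMSO replicates 1, 3 and 4. The deviation moved weakly with the length of the merged exons (Spearman correlation 0.326). Its median was -0.33 over the 44 members shorter than 1718 bases and 0.02 over the 45 others. Without that library 3 members were higher and 19 lower of 90 tested, while 13.4% of all genes were higher and 13.6% lower. The 10 that were lower with all 8 libraries were among the 19, with Atp5e, Atp5l2, Cox7b, Ndufa1, Ndufa13, Ndufa4, Ndufb9, Ndufs5 and Uqcrq added.

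**Figure D4:**
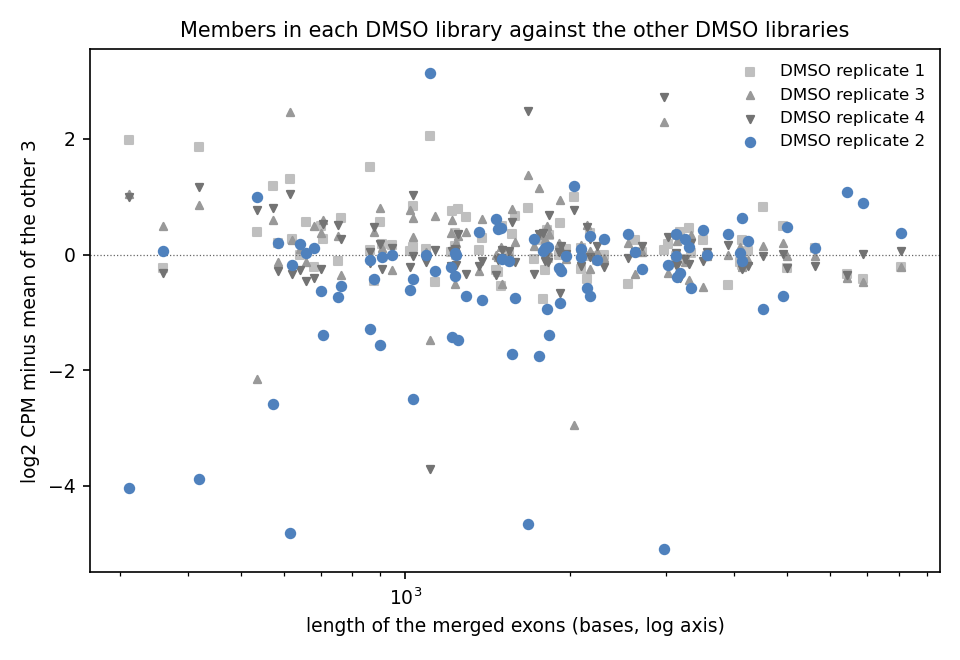
Deviation of each DMSO library from the mean of the other 3 (log2 CPM, vertical axis) against the merged exon length of each tested member (bases, log axis); points are genes, blue for DMSO replicate 2 and grey for the others. Most of the 15 members at which DMSO replicate 2 lies more than 1 log2 unit below 0 are shorter than 1718 bases.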

How the data were processed

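RNA was sequenced from 8 libraries, 4 given sal003 and 4 given DMSO. The deposited table holds the authors' raw counts for each gene, whole numbers that were not normalized. Per the labels' protocols, the SMARTer kit keeps strand, and rRNA and mitochondrial transcripts were removed first. The mm10 build, featureCounts 1.4.4, STAR 2.3.0e and Trimmomatic 0.32 are named in the submitters' processing notes; strand and multi-mapping settings of the counting are not given there. Of the 93 members, 29 have exons that overlap a gene on the opposite strand, and 12 share over 10% of their 50-base words with other genes. For the dose, the design text has 10 µM, which is used here, and the treatment protocol has 10 mM.

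In R 4.3.3, edgeR 4.0.16 was run on all genes: filterByExpr by condition (minimum count 10, minimum total 15), TMM scaling, and the robust quasi-likelihood F test between conditions with no other covariate, two-sided, adjusted by Benjamini-Hochberg. The SE is the log2 fold change divided by the square root of F. Depth was 32753929 to 40234107 counts per library; no molecular identifiers are described, so limits from depth cover counting error only. Replicates differed beyond counting noise (chi-square per degree of freedom at least 25.3). Coordinates are from GENCODE M21, which held all 93 members. Alternatives were other scalings, filters, tools (DESeq2 1.42.0, limma 3.58.1), halved counts (75.6 to 83.4% of the counts from 1 to 20 in a library were even), a replicate block, a stricter threshold and leaving out each library.

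Members and lists were chosen with earlier results of these data known. The genes named with values are the muscle isoforms, their counterparts and alternative isoforms, members past the threshold or without overlap, the extremes and the most abundant of each complex, members that failed the filter, and up to 4 genes of each list outside the symbols past the threshold. Ndufv1, Ndufv2, Sdha, Sdhb and Atp5a1 were named for their roles, after their values were seen. Results for some genes under this rule are not reported here.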

Additional observations from a re-analysis of the deposited data

Results flagged for a closer look

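In 11 of 198 groups of 4 libraries, a highest or lowest library lay far from the other 3 by Dixon's criterion (gap over range above 0.829), where chance flags about 5% of groups; 3 of the 11 concerned DMSO replicate 2. In the sal003 group, replicate 2 was highest for Cox6a2 at 0.570 CPM (the others 0 to 0.0501), for Uqcr11 at 24.6 CPM (20.9 to 21.4) and for Uqcrfs1 at 119.6 CPM (104.5 to 106.6). The same library was lowest for Ndufaf2 at 4.44 CPM (6.96 to 7.46) and for Ndufs5 at 8.38 CPM (10.06 to 10.13). Replicate 4 was highest in the sal003 group for Cox4i1 at 124.4 CPM (111.6 to 113.7) and for Ndufs7 at 66.0 CPM (59.2 to 59.9). In the DMSO group, replicate 2 was highest for Atp5l at 19.96 CPM (9.17 to 9.52), for Sdhc at 99.4 CPM (81.2 to 83.7) and for Uqcrc1 at 346.9 CPM (218.8 to 227.6), although it was the lowest DMSO library for 40 of the 89 tested members. Replicate 3 was highest in the DMSO group for Uqcc1 at 99.6 CPM (67.4 to 70.02).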

How the results depend on the processing

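Over 60 tested genes (50 members and 10 of the lists), 1007 values were recomputed: 901 kept their direction and side of the threshold, 41 lost the call, 31 gained one and 34 changed sign. The members' counts of 2 higher and 10 lower were also found with DESeq2 size factors, upper-quartile scaling, no filter, halved counts and the replicate block. Whether the numbers pair libraries is not in the labels. Deviations of same-numbered libraries correlated at -0.00531 to 0.0354, with 1 of 4 best matched to its own number, which cannot settle the pairing. With no filter and with the replicate block, Ndufa7 lost the call (adjusted p = 0.0546 and 0.0516) and Ndufb9 gained it (0.0453 and 0.026). Under library totals alone 4 members were higher and 4 lower, beside 2878 of all genes higher and 1365 lower. The medians were -0.0231 for complex I, 0.0887 for II, 0.0838 for III, 0.0159 for the structural subunits of IV, 0.108 for V and 0.102 for assembly factors. Ndufa11, Ndufs4, Ndufa7, Ndufv3 and Sdhc were among those that lost the call there. limma-voom called 17 of 89 members lower, beside 2424 of all 15816 genes tested. The DESeq2 Wald test called 12 of 88 members lower, beside 2130 of 14570 genes. The 10 CPM filter, which removed Cox6a2 and Cox8b, gave 13 of 71 members lower, beside 1859 of 9120 genes. At an adjusted p below 0.01, 0 of 89 members were higher, beside 984 of all 15816 genes tested, and 6 were lower. The number of all genes lower at that threshold is not given here, so the 6 cannot be set against it. Leaving out 1 library gave 0 to 3 members higher and 8 to 19 lower, beside 1270 to 2219 of all genes higher and 1612 to 2252 lower. Medians were -0.273 to -0.0790 for complex I, -0.127 to -0.042 for II and -0.117 to 0.0125 for III. The difference for the isoform pair Cox6a2 over Cox6a1 then ran from -7.53 to -5.84 and that for the isoform pair Cox8b over Cox8a from -3.23 to -2.41; with 35 arrangements the exact permutation p cannot fall below 0.0571, so neither pair can pass. Signs changed, for genes not past the threshold with all 8 libraries, under library totals for Cox4i1 (0.0271), Cox6b1 (0.163), Sdha (0.112), Uqcr11 (0.0151), Uqcrc1 (0.124), Uqcrfs1 (0.00168) and Uqcrq (0.0431), with limma-voom for Atp5g1 (-0.0825), Cox6a1 (-0.0594), Cox8a (-0.00728) and Uqcrc1 (0.111), with upper-quartile scaling for Atp5g1 (-0.00681), with the 10 CPM filter for Cox6a1 (-0.0225) and with the replicate block for Cox6b1 (0.0665). Without 1 library, ranges crossed 0 for Atp5g1 (-0.13 to 0.14), Cox6b1 (-0.25 to 0.12), Cox6a1 (-0.12 to 0.16), Cox8a (-0.0230 to 0.158), Sdha (-0.0858 to 0.0158), Atp5g3 (-0.0112 to 0.228), Uqcrc1 (-0.10 to 0.15), Atp5g2 (-0.84 to 0.20), Ndufs7 (-0.0136 to 0.136) and Uqcrq (-0.367 to 0.0486). The causes were not tested.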
